A study of Homo sapiens with 44 samples.

Results

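The change in m6A enrichment of mRNAs was examined in NGP cells, a human MYCN-amplified neuroblastoma line labelled wild type, after 6 days with the METTL3 inhibitor STM2457 at 8 µM or with its solvent DMSO. Each treatment had 3 input libraries (poly(A) RNA before immunoprecipitation) and 3 RIP libraries (RNA bound by an m6A antibody), so 12 of the series' 44 samples in 4 groups were used. The other samples are Kelly neuroblastoma cells after 1 or 6 days, of which 12 libraries at each time served as a comparison, and Kelly xenografts, not analysed here. The labels do not say whether the 3 numbered samples of a group came from separate cultures, so p-values measure only the spread between these samples, which may be technical. For every gene the enrichment change was the log2 RIP-to-input ratio with STM2457 minus that with DMSO. Of 19923 genes counted, 13088 passed the filter on low counts, and 4085 of these had a mean input of at least 50 CPM (counts per 1000000 fragments counted, scaled by TMM). The rule used only input levels and no enrichment value, and every gene of at least 50 CPM was tested. The genes nearest the minimum were BCR and AC068631.3 just under it, with log2 changes of -0.18 and 1.08, and CMIP and SLC2A4RG just above it, with 0.27 and 0.53 (BCR -0.07 and SLC2A4RG 0.31 without DMSO RIP replicate 1).

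N6-methyladenosine is written onto mRNA by a complex in which METTL3 is the catalytic subunit, METTL14 its RNA-binding partner and WTAP the adaptor. It is placed mostly within GGACT-like motifs of long internal exons and near stop codons, is removed by FTO and ALKBH5, and is read by YTH-domain proteins, of which YTHDF2 promotes decay of the marked mRNA. Short, exon-rich and highly expressed housekeeping mRNAs, such as those for ribosomal proteins, carry little of it, and transcripts of many regulatory genes carry more.

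Counted fragments per library, in units of 1000000, were 5.49 to 11.6 for input and 13.1 to 24.1 for RIP. Of 10 noradrenergic neuroblastoma genes, all but TH had median inputs from 130 CPM (ISL1) to 5476 CPM (MYCN), whereas TH, the rate-limiting enzyme of catecholamine synthesis, lay between 0.36 and 4.02 CPM. PTPRC, HBB, PECAM1, KRT18 and CDH1, which mark blood, endothelium and epithelium, were at 0 in all 6 inputs. Of the other such markers, CD68 lay between 3.58 and 8.52 CPM and EPCAM between 0.54 and 4.55 CPM. VWF and KRT8 reached at most 0.18 and 0.38 CPM. Among mesenchymal or fibroblast markers, median inputs were 108 CPM for VIM, 45.1 for COL1A1, 43.2 for FN1, 24.1 for COL3A1 and 5.73 for PRRX1. COL1A2 and CD44 had medians of 0.17 and 0 CPM. DMSO RIP replicate 1 stood apart from the other 2 DMSO RIP libraries: the SD of its log2 deviations from the group mean was 0.376 over genes of at least 50 CPM, against 0.123 to 0.234 for the other 11 libraries. Class medians, and named genes that it moved by over 1.5 times, are therefore given with and without it. TMM scaling sets the typical gene near no change, and the spike-in RNAs that the protocol describes are not among the genes counted, so a loss of m6A shared by all mRNAs could not be measured here.

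Motif sequences are shown for 6 of the genes at the ends of the distribution, 4 from the lower end and 2 from the upper. Each is a 30-base window around the GGACT (capitals) nearest the stop codon within a single exon of the gene's MANE Select transcript, read 5′ to 3′ on the transcript strand from hg38. The counts are per gene, so none of these windows was measured as a site.
MRPL36: gaagcgctgcaaGGACTgttacctggtgaa
HMGN4: aagcacccaacaGGACTgctcaagccacct
HOXC9: ccgcagctacccGGACTacatgtacggctc
FOXM1: gacagcaggcagGGACTgttctgctcctca
RPL9: tggctaccgttcGGACTatttgtagtcatg
AP2S1: ccggcccctcctGGACTcgcctgctcgctt
The MRPL36 window lies at chr5:1798688-1798717 (minus strand) in the coding sequence, 79 bases before the stop codon. The HMGN4 window lies at chr6:26545159-26545188 (plus strand) in the 5′ UTR, 306 bases before the stop codon. That of HOXC9 lies at chr12:54000593-54000622 (plus strand) in the coding sequence, 364 bases before it. The FOXM1 window at chr12:2858526-2858555 (minus strand) and the AP2S1 window at chr19:46838393-46838422 (minus strand) lie in the 3′ UTR, 97 and 39 bases from the stop codon. RPL9 and AP2S1 themselves were depleted in RIP with DMSO, at log2 ratios of -2.15 and -2.85. The RPL9 window lies at chr4:39457615-39457644 (minus strand) in the coding sequence, 365 bases before the stop codon. MRPL36, HMGN4 and AP2S1 each hold 1 GGACT in that transcript, RPL9 holds 2, FOXM1 4 and HOXC9 5, and PTMS, the gene with the largest positive change, holds 0. HDAC2, also from the upper end with a change of 1.14, holds 6, more than any of these. Its window, not shown, lies in the 3′ UTR, 108 bases from the stop codon. The motif by itself is common: 3740 of the 4044 genes of at least 50 CPM with a matched transcript (92.5%) hold at least 1 GGACT on the sense strand. That share was counted on the longest protein-coding transcript of each gene, which can differ from the MANE Select one: there MRPL36 holds 0 and RPL9 4.

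No gene's enrichment change passed an adjusted p of 0.05 in the quasi-likelihood test of edgeR, adjusted by Benjamini and Hochberg's method over 13088 genes (0.0% called; lowest adjusted p 0.294). At an unadjusted p under 0.05 there were 764 genes, 5.84% of those tested, with 401 higher (3.06%) and 363 lower (2.77%). DESeq2 called 2 genes, HMGN4 and MRPL36, both lower. Among the 4085 genes of at least 50 CPM the log2 change had a median of 0.05, and 90% of genes lay between -0.52 and 0.61. Only 25 genes moved by at least 1 on the log2 scale, 17 higher and 8 lower. The median SE was 0.28 and the median half-width of a 95% confidence interval 0.59, and for 2940 genes (72.0%) the whole interval lay within a change of 1 either way. Of these genes 325 (7.96%) had an unadjusted p under 0.05, unevenly split into 224 higher (5.48%) and 101 lower (2.47%), and without DMSO RIP replicate 1 they were 255 (6.24%) and 141 (3.45%). The 3 treated ratios lay wholly above the 3 control ratios in 675 genes (16.5%) and wholly below them in 396 (9.69%). Each ratio uses the mean input of its group, so the spread between input libraries does not enter this or any later statement on overlap of ratios.

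**Figure D1:**
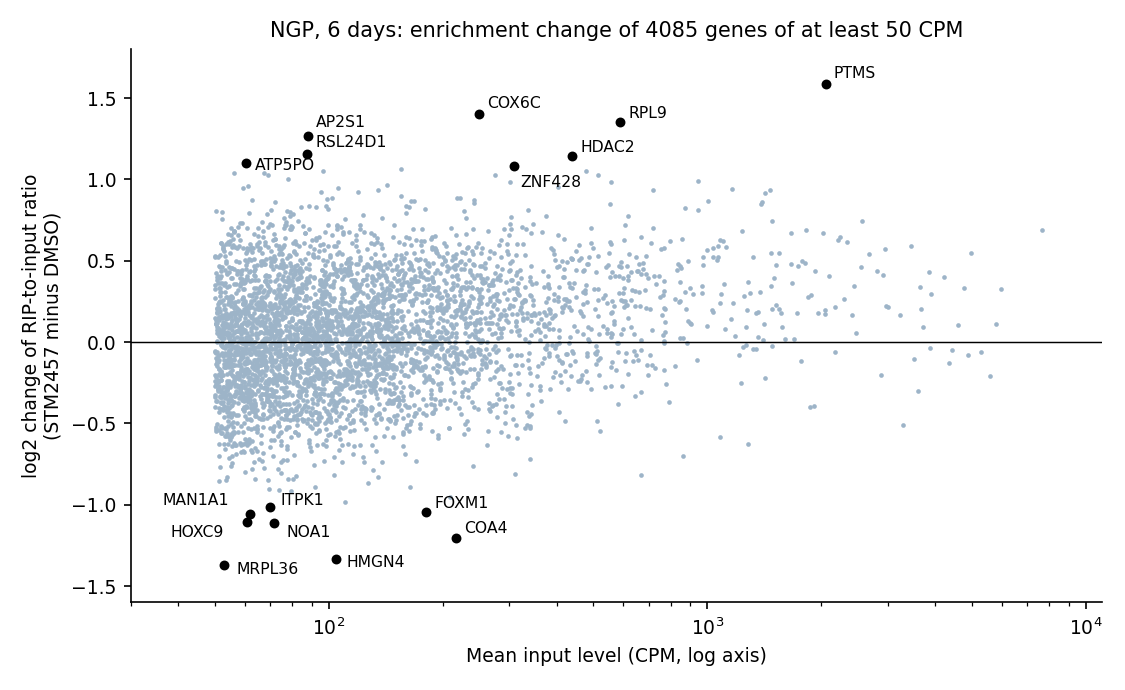
Log2 change of the RIP-to-input ratio (STM2457 minus DMSO, vertical) against the mean input level (CPM, log axis) for 4085 genes of at least 50 CPM in NGP cells at 6 days; each point is a gene, and black points are the 8 largest changes in each direction among genes whose treated and control ratios do not overlap. Most points lie within 0.5 of 0, from MRPL36 at -1.37 to PTMS at 1.59.

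Many genes differed between RIP and input in both treatments. With genes in 5 equal groups by GC content, the median log2 ratio in DMSO was 0.35 in the lowest group and -1.40 in the highest. By GGACT density it was -0.35 in the lowest group and -0.73 in the highest. How far the ratio reflects m6A was not tested. In DMSO, 487 genes of at least 50 CPM had a RIP level at least 2-fold over input with an adjusted p under 0.05 in edgeR, and with STM2457 461 had, of which 372 were shared. The genes at least 2-fold depleted in RIP numbered 1355 in DMSO and 1268 with STM2457, of which 1144 were shared. The SD of the log2 ratio across genes was 1.20 in DMSO and 1.14 with STM2457. Taken alone, the RIP level of 77 genes (1.88%) rose and that of 57 (1.4%) fell with STM2457 at an adjusted p under 0.05, and the input level of 58 (1.42%) rose and that of 48 (1.18%) fell.

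The lowest unadjusted p-values belonged to HMGN4 and MRPL36, both with less enrichment after STM2457. MRPL36 encodes a protein of the large mitochondrial ribosomal subunit (chr5:1798385-1801366, minus strand). Its RIP level was 223, 201 and 170 CPM in the DMSO libraries and 90.6, 102 and 125 CPM in the STM2457 libraries, while its input level was 48.6, 43.0 and 41.6 CPM against 60.5, 50.1 and 73.1 CPM. The RIP values of the treatments did not overlap, and the input values were higher in all 3 treated libraries. The log2 ratio went from 2.16 to 0.79, a change of -1.37 (SE 0.27; edgeR adjusted p 0.294, DESeq2 adjusted p 0.0031).

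HMGN4 encodes a nucleosome-binding protein of the high mobility group (chr6:26538366-26546933, plus strand). Its RIP level was 203, 194 and 160 CPM with DMSO and 91.6, 96.6 and 105 CPM with STM2457, and its input 93.5, 74.8 and 102 CPM against 135, 104 and 119 CPM. All treated inputs were above all control inputs, and all treated RIP values below all control RIP values. The change was -1.33 (SE 0.25; edgeR adjusted p 0.294, DESeq2 adjusted p 0.0011). Taken alone, the RIP level fell by 0.91 for MRPL36 (edgeR adjusted p 0.0116) and by 0.93 for HMGN4 (edgeR adjusted p 0.00645). Without DMSO RIP replicate 1 the changes were -1.29 and -1.28, with adjusted p 0.172 for both in edgeR. In Kelly cells after 1 day both fell, by 1.07 and 0.88 (edgeR adjusted p 0.00232 and 0.00362), and after 6 days the values were -0.25 and -0.29, neither called.

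HOXC9, a posterior HOX transcription factor, shared this pattern. Its RIP level was 145, 128 and 126 CPM with DMSO and 62.5, 82.8 and 68.4 CPM with STM2457, with inputs of 44.4, 70.5 and 55.1 against 61.8, 73.8 and 59.8 CPM. Only the RIP values separated the treatments. Its change was -1.11 (SE 0.28) and -1.06 without DMSO RIP replicate 1. FOXM1, a transcription factor of the G2 and M phases, had RIP levels of 250, 159 and 153 CPM against 114, 146 and 165 CPM and inputs of 155, 132 and 136 against 219, 225 and 216 CPM. The treated inputs were the higher in every library and the RIP ranges overlapped, so its change of -1.04 (SE 0.28) lay mostly on the input side. In Kelly cells after 1 day FOXM1 fell by 1.10 and HOXC9 by 1.00 (edgeR adjusted p 2.29e-06 and 0.0175), and after 6 days they had -0.56 and -0.42, neither called (edgeR adjusted p 0.136 and 0.612). Without DMSO RIP replicate 1 the NGP change of FOXM1 was -0.80. HOXC9 shares exon bases with HOXC6, and FOXM1 with ITFG2.

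The other 4 of the 8 largest negative changes were smaller without DMSO RIP replicate 1. COA4, an assembly factor of cytochrome c oxidase, had RIP levels of 861, 376 and 354 CPM with DMSO and 236, 192 and 301 CPM with STM2457. Its highest control value was that of replicate 1, and its change was -1.20 with that library and -0.68 without it. NOA1, a mitochondrial GTPase that shares exon bases with REST, went from -1.11 to -0.69, MAN1A1, a Golgi mannosidase, from -1.05 to -0.57, and ITPK1, an inositol phosphate kinase, from -1.02 to -0.71.

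Among the 8 largest positive changes, the increase lay in the RIP libraries for some genes and in the input for others. PTMS encodes parathymosin, a small acidic nuclear protein. Its RIP level was 1215, 820 and 931 CPM with DMSO and 4338, 1785 and 2017 CPM with STM2457, and its input 1238, 2962 and 2239 CPM against 1685, 2891 and 1304 CPM. All treated RIP values were above all control values, the inputs overlapped widely, and the RIP level alone rose by 1.46 (edgeR adjusted p 0.0220). The change in enrichment was 1.59 (SE 0.47; edgeR adjusted p 0.839) and 1.75 without DMSO RIP replicate 1. For PTMS it was 1.07 without STM2457 RIP replicate 1, whose RIP level was the highest. AP2S1, the small sigma subunit of the AP2 clathrin adaptor, had RIP levels of 14.0, 13.9 and 11.8 CPM against 36.3, 23.0 and 21.1 CPM. Its RIP level rose by 1.02 (edgeR adjusted p 0.0306) with overlapping inputs, for a change of 1.27 (SE 0.34). ZNF428, a zinc finger gene that shares exon bases with SRRM5, rose by 1.27 in RIP (edgeR adjusted p 0.0271), and its change in enrichment was 1.08 (SE 0.42). That of ZNF428 was 0.54 without STM2457 RIP replicate 1, whose RIP level of 220 CPM was above the 84.1 and 102 CPM of the other treated libraries.

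RPL9, a protein of the large cytosolic ribosomal subunit, had inputs of 704, 770 and 789 CPM with DMSO and 363, 441 and 463 CPM with STM2457. Its RIP levels of 144, 169 and 196 CPM against 372, 198 and 155 CPM overlapped, and its change was 1.35 (SE 0.34), or 0.90 without STM2457 RIP replicate 1. COX6C, a subunit of cytochrome c oxidase, had inputs of 206, 697 and 213 CPM against 105, 138 and 139 CPM, a fall of 1.55 (edgeR adjusted p 0.0211). Its RIP levels of 1929, 3338 and 3928 CPM and of 2774, 3170 and 2383 CPM overlapped, so the change of 1.40 (SE 0.48) lay on the input side. One library weighed on it: leaving out any single library gave values from 0.54 to 1.66, the lowest without DMSO input replicate 2. ATP5PO, a subunit of the ATP synthase stalk, and RSL24D1, a factor of large ribosomal subunit assembly, showed the same form, with inputs that fell by 1.18 and 1.17 (edgeR adjusted p 0.00558 and 0.0190) and RIP changes of -0.08 and -0.02. Their enrichment changes were 1.10 (SE 0.31) and 1.16 (SE 0.36). That of RSL24D1 was 0.78 without DMSO input replicate 2. HDAC2, a class I histone deacetylase, had a change of 1.14 (SE 0.33) with RIP levels of 409, 515 and 809 CPM against 1162, 712 and 658 CPM and lower inputs in all 3 treated libraries. The change of HDAC2 was 0.84 without STM2457 RIP replicate 1.

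**Figure D2:**
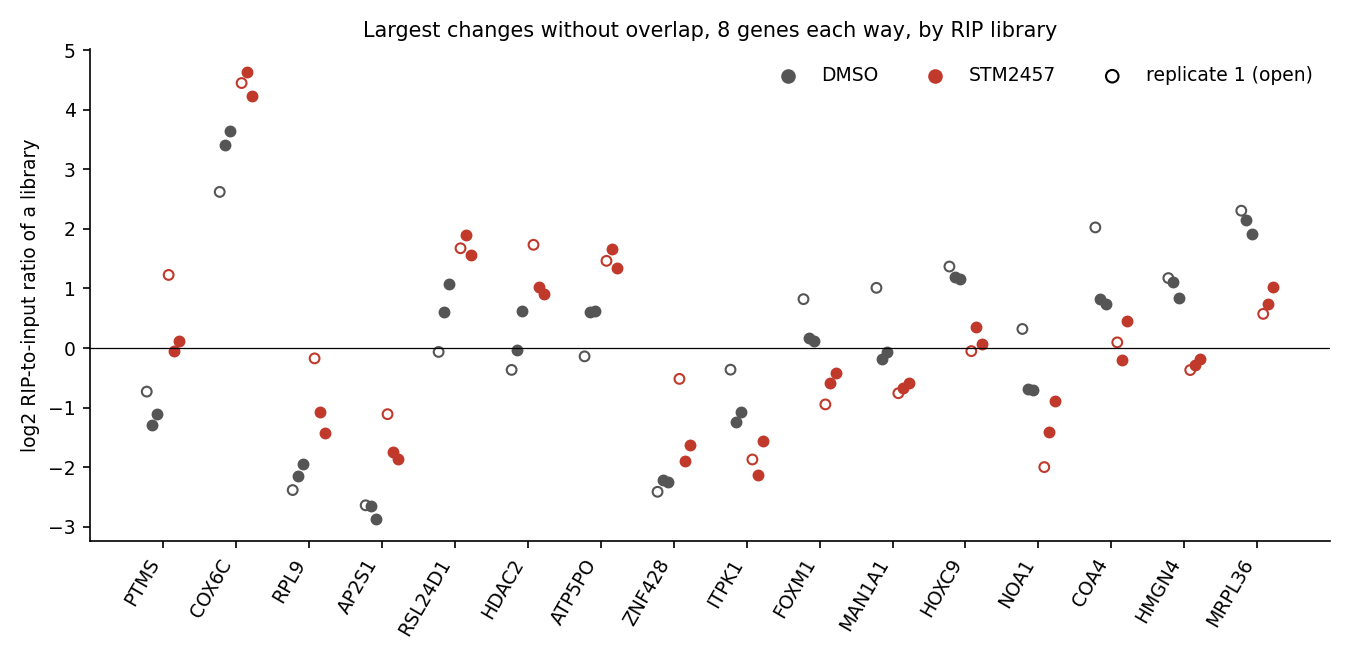
Log2 RIP-to-input ratio of each RIP library (over the mean log2 input of its group) for the 8 largest positive and 8 largest negative changes whose treated and control ratios do not overlap; grey is DMSO, red is STM2457, and open points are replicate 1. The control ratio of replicate 1 lies farthest from the treated ratios for COA4, NOA1 and MAN1A1, and the 3 control ratios lie close together for MRPL36, HMGN4 and HOXC9.

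No gene of the m6A machinery was called for enrichment. METTL3, the target of the drug, had inputs of 100, 84.4 and 87.8 CPM with DMSO and 96.6, 74.8 and 120 CPM with STM2457, and RIP levels of 88.5, 63.8 and 67.7 against 62.4, 66.7 and 60.1 CPM. Both ranges overlapped, and its enrichment change was -0.32 (95% interval -0.89 to 0.26), or -0.17 when DMSO RIP replicate 1 was left out. WTAP gave -0.36 (SE 0.25) and the demethylase ALKBH5 -0.62 (SE 0.42), the latter -0.14 without DMSO RIP replicate 1. METTL14 and FTO, below 50 CPM of input at 18.1 and 33.01 CPM, gave -0.18 (SE 0.41) and -0.03 (SE 0.31), or -0.39 and -0.08 without that library. Of the 11 writer and eraser genes listed, 5 reached 50 CPM, and 4 of these were below 0 with a median of -0.36, the lowest of the class medians, or -0.14 without that library; none had an unadjusted p under 0.05. RBM15B, an RNA-binding subunit of the writer complex, went from -0.60 to -0.00 without it. YTHDF2, the decay reader, had a change of -0.41 (SE 0.26), or -0.25 without it, and the 9 readers of at least 50 CPM had a median of 0.05, or 0.03 without it, with 5 above 0 either way. HNRNPC, an RNA-binding protein whose sites can be exposed by m6A, had the lowest unadjusted p of that list, with a change of 0.99 (SE 0.29). MAT2A, which makes the methyl donor S-adenosylmethionine and whose own mRNA is methylated, had a change of 0.21 (SE 0.33), which turned to -0.08 without that library. In Kelly cells MAT2A rose by 0.81 after 1 day (edgeR adjusted p 0.00233) and had 1.996 after 6 days, not called (edgeR adjusted p 0.372). Neither difference from NGP was called (edgeR adjusted p 0.574 and 0.620). METTL3 shares exon bases with TOX4, WTAP with SOD2, RBM15B with DCAF1 and MAT2A with GGCX. The amplified oncogene MYCN had inputs between 4178 and 6830 CPM and a change of -0.21 (95% interval -0.79 to 0.38), or -0.06 without DMSO RIP replicate 1.

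Enrichment changes followed how strongly a gene was enriched in untreated cells, most of it through a single library. To avoid ranking genes by the NGP control libraries that also enter the change, genes were placed in 10 equal groups by the RIP-to-input ratio in Kelly DMSO libraries of the 6-day experiment. In the least enriched group 375 of 408 genes (91.9%) were above 0 with a median of 0.34, and 56 had an unadjusted p under 0.05, all higher (13.7%, against 5.48% over all genes of at least 50 CPM). In the most enriched group 84 of 408 (20.6%) were above 0 with a median of -0.23, and 32 had an unadjusted p under 0.05, all lower (7.84%, against 2.47%). Over all genes of at least 50 CPM, 55.4% were above 0. Without DMSO RIP replicate 1 the medians were 0.16 in the least enriched group and 0.06 in the most enriched, and only groups 7, 8 and 9 lay below 0, at -0.02, -0.06 and -0.07. Across the 4078 genes with a Kelly value, Spearman's rho between that ratio and the NGP change was -0.60 with all libraries and -0.21 without this one; genes are not independent replicates.

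The same was seen in a value per library. The median log2 ratio of the top 10% of genes minus that of the bottom 10% (ranked by the Kelly ratio, 406 genes each, mitochondrially encoded mRNAs left out) was 3.17, 1.83 and 1.68 in the DMSO RIP libraries and 1.81, 1.40 and 1.86 in the STM2457 libraries. DMSO replicate 1 was the highest, and the other 5 libraries lay within a common range. The means were 2.23 ± 0.82 (SD, n = 3) and 1.69 ± 0.25 (SD, n = 3), a difference of -0.54 that an exact two-sided permutation test over 20 arrangements did not separate from the spread between libraries (p = 0.5, where 0.1 is the smallest this design allows). Without DMSO RIP replicate 1 the difference was -0.07 (exact permutation p = 0.9 over 10 arrangements).

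**Figure D3:**
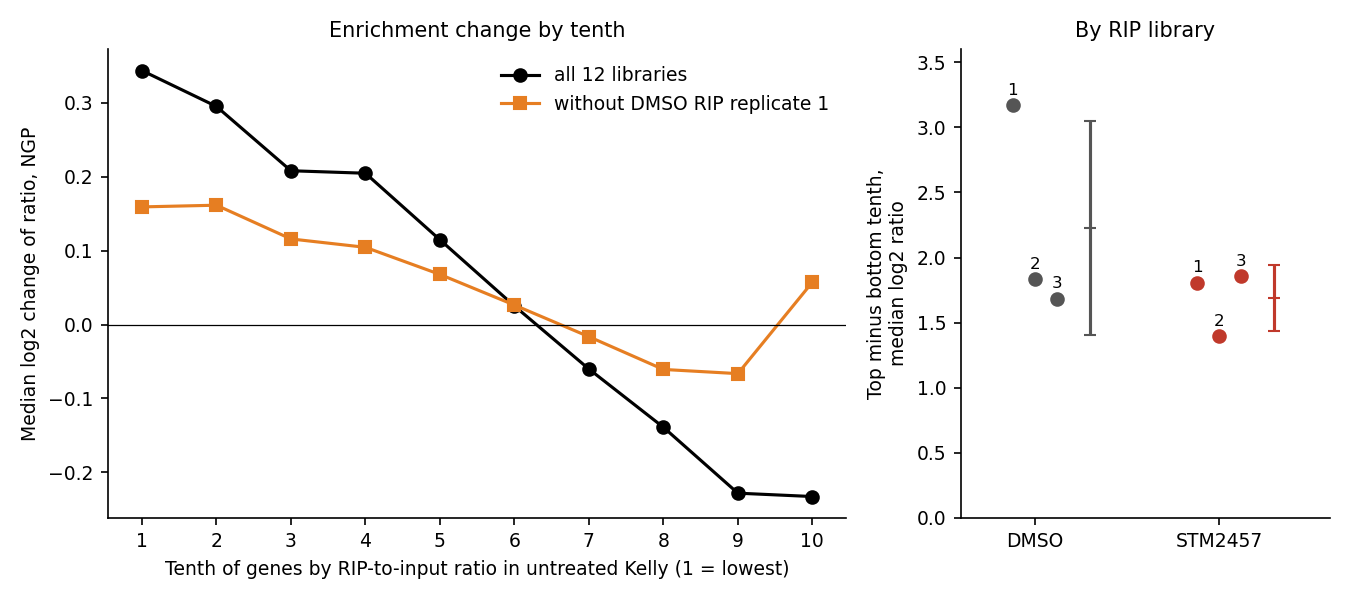
Left, median log2 enrichment change in NGP cells for 10 equal groups of genes ordered by the RIP-to-input ratio in untreated Kelly cells (6-day experiment), with all 12 NGP libraries (black) and without DMSO RIP replicate 1 (orange). Right, median log2 ratio of the top 10% minus the bottom 10% of genes for each RIP library with its replicate number, and mean ± SD; the median change runs from 0.34 to -0.23 in black and from 0.16 to 0.06 in orange, and DMSO replicate 1 is at 3.17.

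Gene models showed weaker relations with the change. When genes were split into 5 equal groups, those with the shortest longest exon had a median of 0.19 with 69.4% above 0, and those with the longest -0.03 with 47.0%. The group of lowest GGACT density had a median of 0.15, against 0.03 in the highest. Spearman's rho was -0.18 for the longest exon, -0.11 for GGACT per kilobase and -0.10 for GC content of the transcript. Without DMSO RIP replicate 1 these were -0.09, -0.01 and 0.19, so that of GC content turned. The input level itself gave 0.21 with and 0.16 without that library, with a median of 0.19 in the most abundant of 5 groups and -0.06 in the least abundant.

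Classes of housekeeping mRNAs lay above the median of 0.05 of all genes of at least 50 CPM. With any single library left out, DMSO RIP replicate 1 included, that median of all genes lay between 0.01 and 0.06. Whether a class lies above or below 0 depends on the scaling: with mitochondrial or ribosomal protein mRNAs as the reference the median of all these genes was -0.26 or -0.25, with 1000 or 1047 of 4085 above 0, so class values are to be read against the median of all genes. Such a reference moves all genes by nearly the same amount, so it could hardly change the order of classes and does not test it. With these references in turn, nuclear respiratory chain subunits lay at 0.04 and 0.08 and splicing factors at -0.02 and -0.00. Mitochondrial ribosomal proteins lay at -0.53 and -0.44. The ribosomal protein class lay at -0.02 and 0.03, the latter held near 0 by its own reference. Of 78 cytosolic ribosomal protein mRNAs, which encode the protein part of the cytosolic ribosome, 66 were above 0, with a median of 0.28. None was called. Members with an unadjusted p under 0.05 are named here, and for the classes that follow, after their values were seen. In this class 13 (16.7%, against 5.48% of all genes of at least 50 CPM) had an unadjusted p under 0.05 and were higher, among them RPL9 at 1.35, RPL26 at 1.05, RPS3A at 0.94 and FAU at 0.91. RPL26 was 0.40 without DMSO input replicate 2, and FAU 0.57 without STM2457 RIP replicate 1. The median input change of the class was -0.51 and the median RIP change -0.22. Ribosomal protein mRNAs held 13.9 to 14.1% of input fragments with DMSO and 10.1 to 11.99% with STM2457. In RIP they held 4.39 to 7.03% and 4.57 to 5.55%, ranges that overlap. RPL13, the member with the highest input, had a change of 0.11 (SE 0.25). The class median was 0.10, with 51 of 78 above 0, when DMSO RIP replicate 1 was left out.

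Nuclear-encoded respiratory chain subunits behaved alike. Of 63 members, 55 were above 0, with a median of 0.36. An unadjusted p under 0.05 was reached by 12, all higher (19.0%, against 5.48% of all genes of at least 50 CPM). Among these were COX6C at 1.40, ATP5PO at 1.10, and 2 complex III subunits, UQCRQ at 0.95 and UQCRB at 0.93. UQCRQ and UQCRB were 0.57 and 0.63 without DMSO input replicate 2. COX5B, the member with the highest input, had 0.68 (SE 0.32). The median input change was -0.41, with 6 members whose input fell at an adjusted p under 0.05 in edgeR, against 1.18% of all genes of at least 50 CPM, and the median RIP change was -0.09. The median was 0.17, with 49 above 0, in the absence of DMSO RIP replicate 1. The 13 mitochondrially encoded mRNAs had a median of 0.17 with all libraries and -0.02 without that one. Their largest input, MT-CO1, had 0.32 (SE 0.41), or 0.12 without it, and MT-ND3 0.56 (SE 0.35).

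Mitochondrial ribosomal proteins went the other way. Of 48 members 18 were above 0, with a median of -0.17, and 9 had an unadjusted p under 0.05 and were lower, against 2.47% of all genes of at least 50 CPM. These were MRPL36, MRPL14 (-0.87), MRPS2 and MRPS12 (-0.73 each), MRPL45 and MRPL41 (-0.69 each), MRPL27 and MRPL16 (-0.56 each) and MRPL57 (-0.55). MRPL28 at 0.72 and MRPL22 at 0.61 were higher (4.17%, against 5.48% of all genes of at least 50 CPM). In 15 members the 3 treated ratios lay below all control ratios, against 9.69% of all genes of at least 50 CPM. The class median was -0.20 without DMSO RIP replicate 1, with 15 above 0. At an unadjusted p under 0.05, 12 were then lower, against 3.45% of all genes of at least 50 CPM without that library. The input median was -0.09 and the RIP median -0.24, so the values lay on the RIP side. MRPL15, the member with the highest input, had 0.13 (SE 0.23), and in Kelly cells the class medians were 0.06 after 6 days and -0.01 after 1 day, also below the medians of all these genes there, 0.27 and 0.07.

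Proteins of the splicing, folding and degradation machinery lay above 0. Of 30 SR and hnRNP splicing factors 26 were above 0 with a median of 0.29, or 0.20 with 24 above 0 without DMSO RIP replicate 1. HNRNPC at 0.99, TRA2A at 0.71, HNRNPH1 at 0.70, SRSF3 at 0.61 and HNRNPL at 0.55 had an unadjusted p under 0.05 (16.7%, against 5.48% of all genes of at least 50 CPM). So had HNRNPF at -0.57, the only lower member (3.33%, against 2.47%). HNRNPH1 and SRSF3 were 0.46 and 0.38 without that library. Proteasome subunits had a median of 0.32 with 28 of 34 above 0, and 0.17 without that library. An unadjusted p under 0.05 was reached by 4 of them, all higher (11.8%, against 5.48% of all genes of at least 50 CPM): PSMD1 (0.74), PSMD3 (0.72, or 1.10 without that library) and PSMC2 (0.62, or 0.41) of the regulatory particle and PSMA7 (0.63) of the core. Chaperones had 24 of 35 above 0 and a median of 0.25, with HSPBP1 at 0.95, the chaperonin subunit CCT8 at 0.89 and HSP90AA1 at 0.86, and the median was 0.04 without that library.

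Translation initiation and elongation factors had 34 of 47 above 0 and a median of 0.27, or 0.10 without DMSO RIP replicate 1. EEF2, the translocation factor, had -0.13 (SE 0.25). The lowest unadjusted p on that list was that of EEF1AKNMT at -0.77 (SE 0.30), which is a methyltransferase of an elongation factor and not a factor itself. Aminoacyl-tRNA synthetases had a median of 0.20, with IARS2 at 0.70, and 0.04 without that library. All 14 glycolysis genes but 2 were above 0 with a median of 0.29, and GAPDH had 0.30 (SE 0.28); these were 0.14 and 0.12 without it.

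**Figure D4:**
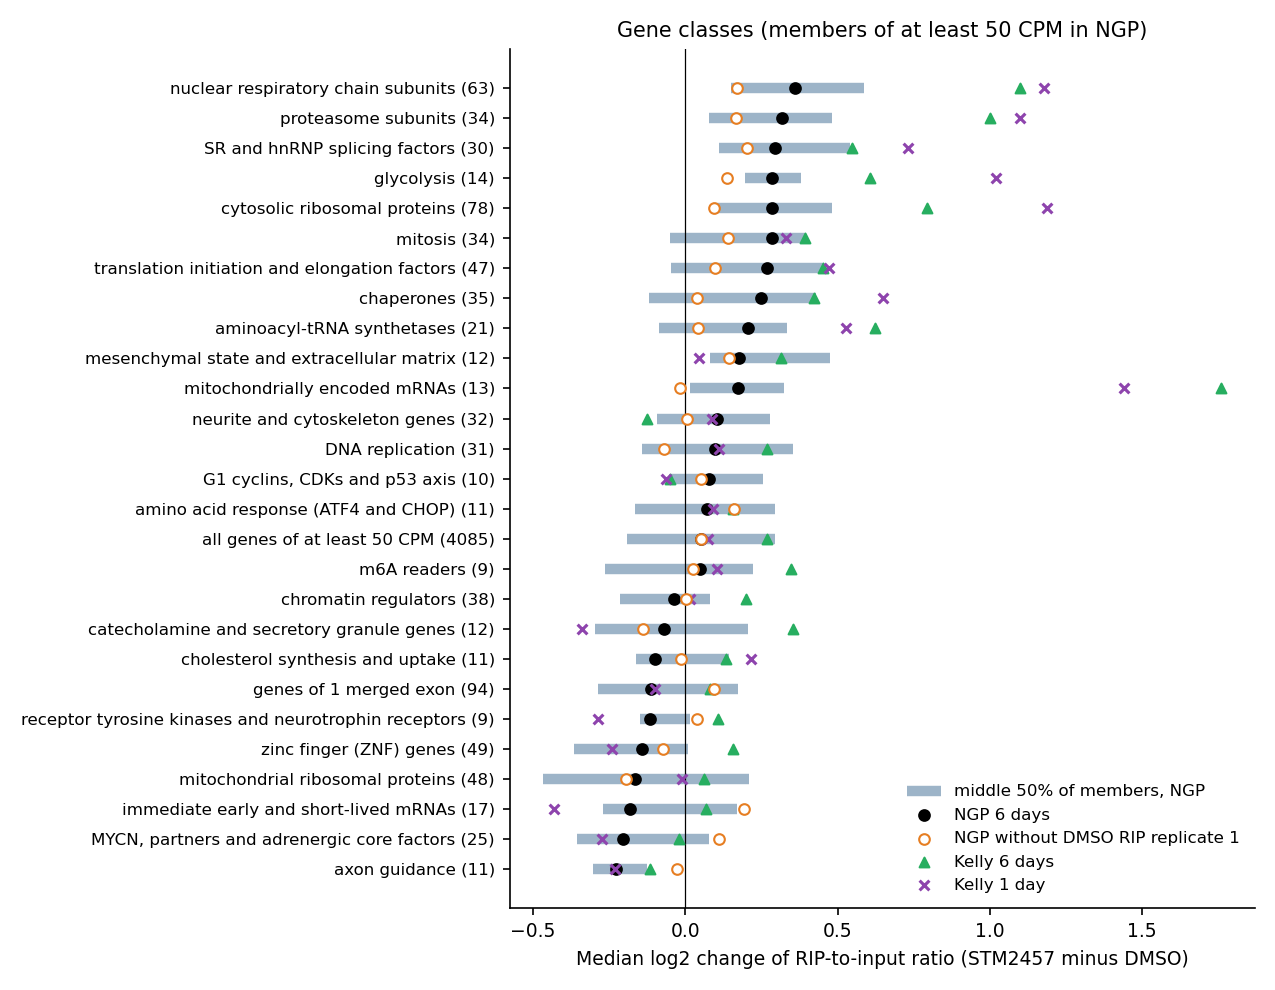
Median log2 enrichment change of each gene class with at least 9 members of at least 50 CPM in NGP (number in brackets): black points for NGP at 6 days with the middle 50% of members as bars, open orange points for NGP without DMSO RIP replicate 1, green triangles for Kelly at 6 days and purple crosses for Kelly at 1 day. Nuclear respiratory chain subunits lie at 0.36 in NGP against 1.10 and 1.18 in Kelly, and mitochondrial ribosomal proteins at -0.17.

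Classes of regulatory genes lay below 0, and 4 of the 6 medians given next changed sign without DMSO RIP replicate 1. The 25 genes of MYCN, its partners and the adrenergic core circuit had a median of -0.21 with 7 above 0, and 0.11 with 15 above 0 without it. PHOX2A, a homeodomain factor of the sympathetic lineage, had the lowest unadjusted p there, at 0.53 (SE 0.24). Immediate early and short-lived mRNAs had -0.18 and 0.19, genes with a single merged exon -0.11 and 0.10 (94 genes), and receptor tyrosine kinases and neurotrophin receptors -0.12 and 0.04. ID3, an inhibitor of bHLH factors, had -0.73 (SE 0.30), with an input that rose by 0.88 (edgeR adjusted p 0.0341). Axon guidance genes had -0.23 with 1 of 11 above 0, and -0.03 without that library. Zinc finger genes had -0.14 with 14 of 49 above 0, and -0.07.

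Cell cycle, secretory and differentiation lists gave medians of 0.28 or less in size. Mitosis genes had a median of 0.28 with 23 of 34 above 0 (NCAPG, a condensin subunit, 0.67), and 0.14 (NCAPG 0.45) without DMSO RIP replicate 1. DNA replication genes had 0.10 and -0.07, with RPA3, a subunit of the single-strand binding complex, at 0.64. CDKN1B, which encodes the CDK inhibitor p27, had -0.53 (SE 0.27), and CDK4 0.02 (SE 0.32), or -0.36 and -0.24 without that library. Catecholamine and secretory granule genes had -0.07, or -0.14 without that library, with DDC, the decarboxylase of dopamine synthesis, at 0.70 (SE 0.28), and its RIP level alone rose by 0.87 (edgeR adjusted p 0.0228). PRPH, the intermediate filament peripherin, had 0.72 (SE 0.28) and its RIP level rose by 1.24 (edgeR adjusted p 0.00116). Of 12 mesenchymal and extracellular matrix genes 10 were above 0 with a median of 0.18 and 0.14 without that library. SPARC, a secreted matrix glycoprotein, had 0.87 (SE 0.28), and its RIP level rose by 1.04 (edgeR adjusted p 0.00672). The other medians, each followed by the median without DMSO RIP replicate 1, were -0.04 and 0.00 for chromatin regulators, 0.07 and 0.16 for amino acid response genes, and -0.10 and -0.01 for cholesterol genes. They were 0.08 and 0.05 for G1 cyclins, CDKs and p53 genes, 0.21 and 0.08 for SAM metabolism genes, and 0.10 and 0.01 for neurite genes. The 4 HOX genes had -0.20 and -0.00, and the 2 replication-dependent histone genes 0.22 and 0.15.

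The same comparison in Kelly cells, another MYCN-amplified line given the same dose, gave larger values. Over the genes of at least 50 CPM in NGP that were also tested there, the SD of the log2 changes was 0.350 in NGP against 0.787 in Kelly at 6 days and 0.782 in Kelly at 1 day. These SDs are not matched for input level, because only NGP input had to reach 50 CPM. The set holds genes of low Kelly input, such as TMEM271 (0.15 to 0.59 CPM at 1 day) and DIABLO (3.13 to 10.3 CPM at 6 days). Of all genes tested, 1.26% were called higher and 0.803% lower in Kelly at 6 days, and 9.53% and 7.62% in Kelly at 1 day. Over the genes of at least 50 CPM in NGP, the median SE was 0.28 in NGP. That SE was 0.34 in Kelly at 6 days and 0.18 in Kelly at 1 day. Every Kelly input or RIP library at 1 day also held more counted fragments than any NGP library of its kind. The shares called thus depend on precision too, and do not by themselves measure the size of the changes. Among the genes of at least 50 CPM in NGP, 137 were called higher in Kelly at 6 days with a median of 1.54, and the NGP median of these genes was 0.30, with 123 above 0 (89.8%). The 937 called higher in Kelly at 1 day had medians of 1.09 there and 0.34 in NGP, with 833 above 0 (88.9%). The 539 called lower had -0.69 and -0.23, with 437 below 0 in NGP (81.1%). For comparison, 2265 of all 4085 genes of at least 50 CPM (55.4%) were above 0 in NGP. Without DMSO RIP replicate 1 the counts in the Kelly direction were 110 of 137, 739 of 937 and 356 of 539. The share of all genes on each side of 0 without it is not given here, so these counts cannot be set against it. Across genes, Spearman's rho of the changes was 0.39 between NGP and Kelly at 6 days (4078 genes) and 0.57 between NGP and Kelly at 1 day (4077 genes), and 0.23 and 0.33 without that library.

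The difference between the enrichment changes was tested gene by gene as a 3-way interaction in edgeR. Between NGP and Kelly at 6 days 55 of 14198 genes (0.387%) differed at an adjusted p under 0.05, and 9 of these (0.22% of 4085) had at least 50 CPM in NGP, 4 higher (0.0979%) and 5 lower (0.122%) in NGP. Between NGP at 6 days and Kelly at 1 day 79 of 14665 (0.539%) differed, of which 37 (0.906%) had at least 50 CPM, 9 higher (0.22%) and 28 lower (0.685%) in NGP. Cell line and experiment cannot be told apart in either comparison, and time differs too in the second. Calls depended on the scaling. With mitochondrial mRNAs as the reference, which themselves had median changes of 1.76 and 1.44 in Kelly at 6 days and 1 day against 0.17 in NGP, PEA15, UQCRC1, TIPRL, FKBP7, NSMCE1 and MCCC2 kept their direction but were not called (edgeR adjusted p 0.978, 1.00, 0.2998, 0.2999, 0.497 and 0.448). The difference of TADA3 was 4.15 under that reference, against 1.96, and was not called either (edgeR adjusted p 0.0915).

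PEA15, a small phosphoprotein of the death effector domain family, had a change of -0.01 (SE 0.25; 0.12 without DMSO RIP replicate 1) in NGP and a rise of 2.35 in Kelly at 6 days, a difference of -2.35 (SE 0.45; edgeR adjusted p 0.0182). Its RIP level in CPM, here without TMM scaling, was 31.3, 17.8 and 33.5 with DMSO and 79.0, 94.9 and 138 with STM2457 in Kelly, against 74.2, 56.0 and 52.5 and then 63.7, 75.04 and 82.8 in NGP. The Kelly groups were separate and the NGP groups overlapped. UQCRC1, a core subunit of complex III, differed likewise, by -2.27 (SE 0.49; edgeR adjusted p 0.0434), but the call was kept in only 7 of 24 fits with a library left out. For UQCRC1 it was also lost with the replicate block, RLE size factors and no low-count filter (edgeR adjusted p 0.0666, 0.0673 and 0.0576). TADA3, a subunit of histone acetyltransferase complexes, differed by 1.96 (adjusted p 0.0359 in edgeR), kept in 12 of 24. TIPRL, a regulator of PP2A-like phosphatases, was lower in NGP (edgeR adjusted p 0.0165): its Kelly DMSO RIP counts were 1, 6 and 3 against 174, 68 and 48 with STM2457, whereas NGP had 760, 1254 and 2245 against 1050, 1114 and 1292. PCSK1N, a secretory granule protein, and DIABLO, a mitochondrial antagonist of apoptosis inhibitors, were higher in NGP (edgeR adjusted p 0.00984 and 0.0075). Both rest on Kelly STM2457 RIP counts of 2, 0 and 0 and of 0, 4 and 0, so no fold is given.

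Against Kelly at 1 day, FKBP7, a peptidyl-prolyl isomerase of the endoplasmic reticulum, had -0.30 (SE 0.29; -0.48 without DMSO RIP replicate 1) in NGP and a rise of 1.85 in Kelly, a difference of -2.19 (SE 0.41; edgeR adjusted p 0.0116). NGP RIP levels were 95.5, 136 and 130 CPM, again without TMM scaling, with DMSO and 55.8, 89.0 and 72.7 with STM2457, and Kelly levels 6.10, 6.47 and 9.98 against 19.6, 24.7 and 23.3. The treated libraries were thus the lower ones in NGP and the higher ones in Kelly, while NGP inputs of 66.2, 65.5 and 55.0 against 50.2, 43.7 and 52.5 were lower too. MCCC2, a subunit of methylcrotonyl-CoA carboxylase, differed by -1.88 (SE 0.36; adjusted p 0.0137 in edgeR), and NSMCE1, of the SMC5/6 complex, by -1.98 (adjusted p 0.0262 in edgeR), the latter kept in 14 of 24 fits with a library left out. TMEM271, the LIM-homeobox gene LHX8 and the lipid transporter ABCA7 were higher in NGP (edgeR adjusted p 0.00786, 0.0249 and 0.0378). TMEM271 and LHX8 had 0 RIP counts in all 3 treated Kelly libraries and ABCA7 had 1, 5 and 1, so no fold is given.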

How the data were processed

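The authors deposited a count table of whole fragments per gene for each library; per the file headers it was made with featureCounts v1.5.3 on paired reads over exons of protein-coding GENCODE 33 genes, grouped by gene name, with no strand option, so reads of genes that share exon bases on opposite strands cannot be told apart. Per the submitters' processing notes, reads were handled with FastQC 0.11.5, Trimmomatic 0.36 and HISAT2 2.1.0 on GRCh38.

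From these counts, edgeR 4.0.16 in R 4.3.3 was used with filterByExpr, TMM scaling and a quasi-likelihood fit over the 4 NGP groups of 3 libraries; the interaction of fraction and treatment was tested over all 13088 genes with Benjamini-Hochberg adjustment at 0.05. Every adjusted p comes from edgeR unless DESeq2 1.42.0 is named. Those for the RIP or input level alone are other contrasts of the NGP fit. Those for Kelly come from a separate fit of each Kelly experiment. Ratios per library are log2(CPM + 1) of a RIP library minus the mean log2(CPM + 1) of the inputs of its group, where CPM is TMM-scaled. The SE is the log2 change divided by the square root of F. Differences from Kelly were 3-way interactions in a joint fit. The fits were tested on simulated data. Gene positions and exon lengths are from the deposited GENCODE 33 gene models. Transcripts, GC content, GGACT counts and the motif windows are from GENCODE 44, with window sequences from hg38.

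Genes were named by a rule: 8 m6A and MYCN genes always; the 8 largest changes each way without overlap of ratios; the 6 smallest p-values; per list, the smallest p and the highest input; the genes next to 50 CPM; and the 3 largest called differences each way. Members, lists and comparisons were chosen with earlier results of these data known. Replicate numbers were not used as pairs. The alternatives tried were other scalings, filters, pseudocounts, DESeq2, blocks, a joint fit and leaving out each library. Xenografts and spike-in RNAs were not analysed here.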

Additional observations from a re-analysis of the deposited data

Results flagged for a closer look

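Each of these was tested as a difference between the enrichment change in NGP cells at 6 days and that in Kelly cells, by the 3-way interaction in edgeR. Between NGP and Kelly at 6 days 55 genes differed. PCSK1N and DIABLO, higher in NGP, had adjusted p-values of 0.00984 and 0.0075 in edgeR and rest on Kelly treated RIP libraries with 0 to 4 counts. TADA3, also higher in NGP, had an edgeR adjusted p of 0.0359. TIPRL, PEA15 and UQCRC1, lower in NGP, had edgeR adjusted p-values of 0.0165, 0.0182 and 0.0434. Between NGP at 6 days and Kelly at 1 day 79 genes differed. TMEM271, LHX8 and ABCA7, higher in NGP, had edgeR adjusted p-values of 0.00786, 0.0249 and 0.0378. FKBP7, NSMCE1 and MCCC2, lower in NGP, had edgeR adjusted p-values of 0.0116, 0.0262 and 0.0137. With each of the 24 libraries of a comparison left out in turn, PCSK1N, DIABLO, TIPRL, PEA15, TMEM271, FKBP7 and MCCC2 were called in all 24 fits, LHX8 in 23, NSMCE1 in 14, TADA3 in 12, and UQCRC1 and ABCA7 in 7 each. TMEM271 and LHX8 had 0 RIP counts in every treated Kelly library at 1 day, and ABCA7 1, 5 and 1. TIPRL had Kelly DMSO RIP counts of 1, 6 and 3 at 6 days. Leaving out 1 library does not remove these limits. With the mitochondrial mRNA reference TADA3, TIPRL, PEA15, UQCRC1, FKBP7, NSMCE1 and MCCC2 were not called. DIABLO shares exon bases with AC048338.1, AC048338.2 and B3GNT4, and TADA3 with ARPC4 and OGG1.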

How the results depend on the processing

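The number of genes with an enrichment change in NGP stayed at 0 under RLE scaling, a robust fit, the ribosomal protein mRNA reference, a joint fit with Kelly and each fit with a library left out. It was 11 without the filter on low counts (7 higher, 4 lower), 2 with DESeq2 and 1 with the mitochondrial mRNA reference. Deviations of same-numbered libraries from their group means correlated at -0.19 to 0.09 between input and RIP and at -0.40 to 0.52 between DMSO and STM2457 (replicate 2 at 0.39 for input and 0.52 for RIP, replicate 3 at -0.04 and -0.40), so the numbers did not pair all samples. The fits with a replicate block called 0 in NGP, 22 for the difference from Kelly at 6 days and 66 for that from Kelly at 1 day. The count of differences from Kelly at 6 days was 265 with DESeq2 and 22 to 419 with a library left out, lowest without Kelly DMSO input replicate 2 and highest without Kelly STM2457 RIP replicate 1. Against Kelly at 1 day it was 454 with DESeq2 and 42 to 502, lowest without Kelly STM2457 input replicate 2 and highest without Kelly STM2457 RIP replicate 3. Without NGP DMSO RIP replicate 1 the counts were 55 and 312. With the mitochondrial reference they were 68 and 88, with 0 lower in NGP in both, where 10 and 30 were lower before.

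The mitochondrial and ribosomal protein references moved the median of all genes of at least 50 CPM from 0.05 to -0.26 and -0.25. With the mitochondrial reference these values turned: MAT2A -0.016, AHCY -0.13, RPL13 -0.16, MRPL15 -0.22, H2BC12 -0.24, FDPS -0.12, ATF4 -0.034, CDK4 -0.28, CMIP -0.056, PCSK1N -0.12, DIABLO -0.070, TADA3 -0.24 and NSMCE1 -0.096. With the ribosomal protein reference AHCY was -0.15, RPL13 -0.20, MRPL15 -0.18, H2BC12 -0.26, FDPS -0.085, CDK4 -0.21, CMIP -0.027, PCSK1N -0.11, DIABLO -0.15, TADA3 -0.25 and NSMCE1 -0.10. CDK4 was -0.021 without the low-count filter and -0.019 in the joint fit. PEA15 was 0.0038 with the replicate block and 0.0015 with the block over input and RIP. Leaving out a library gave ranges across 0 for METTL14 (-0.55 to 0.087), FTO (-0.32 to 0.11), MAT2A (-0.084 to 0.42), H2BC12 (-0.16 to 0.16), HOXC4 (-0.25 to 0.11), CDK4 (-0.24 to 0.18), CHGA (-0.31 to 0.33), NGFR (-0.69 to 0.026), PCSK1N (-0.081 to 0.44), TADA3 (-0.15 to 0.23), PEA15 (-0.10 to 0.12), LHX8 (-0.36 to 0.054), ABCA7 (-0.47 to 0.41) and NSMCE1 (-0.012 to 0.36). The cause was not tested. Of 1251 values of named genes under the other settings 1215 kept direction and side of the threshold. Depth limits genes under 10 CPM, whose median SE was 0.85 against 0.28 at 50 CPM or more.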
